A study of Mus musculus with 18 samples.

Results

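Accessible regions that followed the genotype recorded for 4 ATAC-seq peak lists of mouse skeletal muscle cells are described here. Peaks of the lists on chromosomes 1 to 19 were merged wherever they shared at least 1 bp, and a merged region was kept when it was present in exactly both lists deposited as MyoD-null or in exactly both lists deposited as wild type. This gave 3652 of 139354 merged regions. Of these, 1142 formed the MyoD-null class and 2510 the wild-type class. The lists describe 4 groups of 3 samples: MyoD-null myocytes, wild-type myocytes, MyoD-null myoblasts and wild-type myoblasts. Myocytes had been put into myogenic differentiation for 24 h, and the labels give no treatment for the myoblasts. All cells are labelled as skeletal muscle, and the knockout group differs by its loss of MyoD. The labels used here do not give the age of the mice or the design of the knockout allele. Each list came from the merged reads of its 3 samples, so every value is that of 1 list, has no replicate error, and supports no test between groups.

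ATAC-seq uses a transposase that cuts and tags DNA where nucleosomes and other proteins leave it open, so promoters, enhancers and insulators appear as peaks. MyoD is a basic helix-loop-helix factor that binds E-box sequences, can open closed chromatin, and can turn other cell types into muscle. Myoblasts proliferate and carry MyoD before they differentiate, and myocytes have left the cell cycle and begun to express contractile genes. A region tied to genotype and not to stage would be listed in both stages of 1 genotype and in neither stage of the other, which is the pattern selected here. The members were selected on presence or absence of a peak in each list, and the peak strengths below come from the same lists, so they are given as description.

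The genotype of the 2 myocyte lists was recorded in opposite ways. Peak names in the MyoD-null myocyte list refer to a WT-DM alignment and those in the wild-type myocyte list to an MKO-DM alignment, whereas the names in both myoblast lists match their labels. Read by the peak names, each class therefore joins myoblasts of 1 genotype with myocytes of the other. Which record is right was not tested, and "MyoD-null class" and "wild-type class" below refer to the deposited genotypes. The lists held 86575 peaks on these chromosomes in myocytes deposited as MyoD-null, 109753 in myocytes deposited as wild type, 100192 in MyoD-null myoblasts and 96420 in wild-type myoblasts. The genome-wide background, in reads per base, was 6.34 and 5.29 in the 2 myocyte lists in that order, 8.54 in MyoD-null myoblasts and 8.18 in wild-type myoblasts. At these backgrounds the weakest listed summits had 17, 15, 21 and 20 reads in the same order. That corresponds to fold enrichments over background of 2.45, 2.55, 2.31 and 2.29. Absence from a list means only that no peak was called at that depth, and such a region may still have been open.

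The wild-type class was 2.20 times as large as the MyoD-null class. It made up 1.80% of all merged regions, with a 95% Wilson interval of 1.73 to 1.87, and the MyoD-null class made up 0.819%, with an interval of 0.773 to 0.868. These intervals, like those below, cover counting error only. Both classes were small beside the 64013 regions present in all 4 lists. The order of the 2 classes did not hold when all lists were cut to the same number of peaks by p-value. The MyoD-null class then held 1654 regions and the wild-type class 1394, and 673 and 881 of the original members remained in them.

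**Figure D1:**
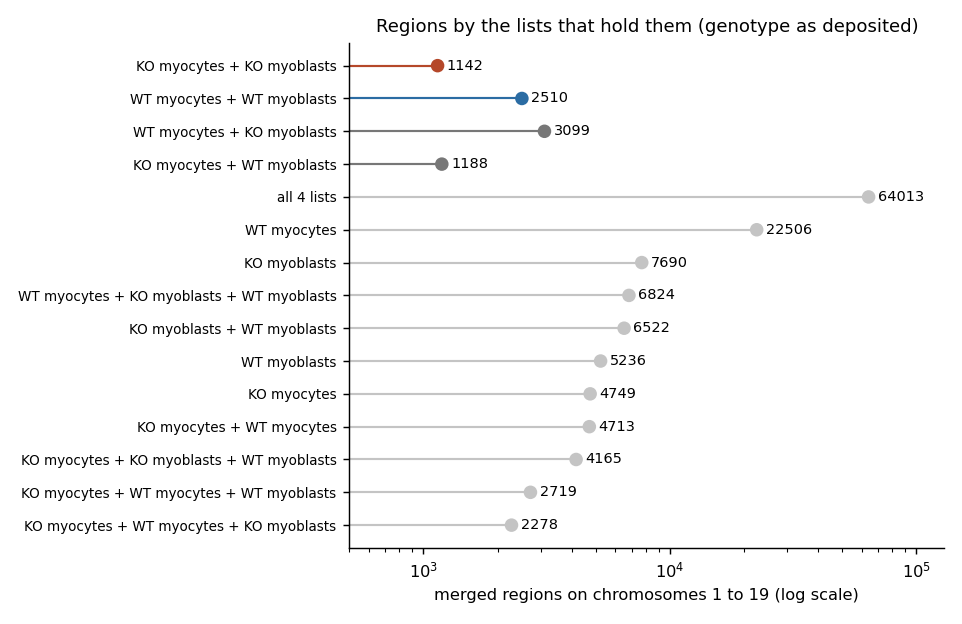
Number of merged regions on chromosomes 1 to 19 for each combination of lists, on a log axis, with KO standing for MyoD-null and genotypes as deposited. The MyoD-null class (red, 1142 regions) and the wild-type class (blue, 2510) are set above the 2 crossed combinations (dark grey, 3099 and 1188) and the other combinations (light grey).

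The 2 crossed combinations, which follow the genotype in the peak names, show what the same lists give when stage and genotype are joined the other way. Myocytes deposited as wild type and MyoD-null myoblasts alone shared 3099 regions, or 2.22% of all merged regions. Myocytes deposited as MyoD-null and wild-type myoblasts alone shared 1188, or 0.853%. The crossed combinations thus held 4287 regions together, against 3652 in the 2 classes that follow the deposited genotype. This order held under all 8 alternative rules for peaks, overlap and chromosomes and under both cuts on the members' q-values. Among the 2330 regions in the myocytes deposited as MyoD-null and exactly 1 myoblast list, 49.0% were with MyoD-null myoblasts. Among the 5609 such regions of the wild-type myocyte list, 55.3% were with MyoD-null myoblasts. MyoD-null myoblasts were thus the more common partner of the myocytes deposited as wild type. Across those alternatives the first share ran from 35.7% to 56.2% and the second from 52.4% to 78.5%. The second was the higher one in each. However, more regions were specific to MyoD-null myoblasts (14209) than to wild-type myoblasts (11653). Of these, 21.8% and 21.5% were shared with the wild-type myocyte list alone. The MyoD-null myocyte list alone shared 8.04% and 10.2%, in the same order. The 55.3% does not take the unequal totals of 14209 and 11653 into account. All of these shares leave out regions present in both myocyte lists. Those were 2278 of the regions specific to MyoD-null myoblasts and 2719 of those specific to wild-type myoblasts. Whether the wild-type myocyte list preferred either myoblast list was not tested.

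The partner also varied with the strength of the myocyte peak. These divisions by strength were chosen after values had been seen. The regions were put into 4 groups of equal size by fold. In the group with the lowest folds in MyoD-null myocytes, 336 of 583 were with MyoD-null myoblasts (57.6%, interval 53.6 to 61.6). In the group with the highest folds it was 247 of 583 (42.4%, interval 38.4 to 46.4). The stronger a peak was in these myocytes, the more often its partner was the wild-type myoblast list. For the other myocyte list, the share with MyoD-null myoblasts was 54.4% in the lowest group (interval 51.8 to 57.0) and 58.9% in the highest (interval 56.3 to 61.5). There the 3 lower groups differed by less than their intervals.

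**Figure D2:**
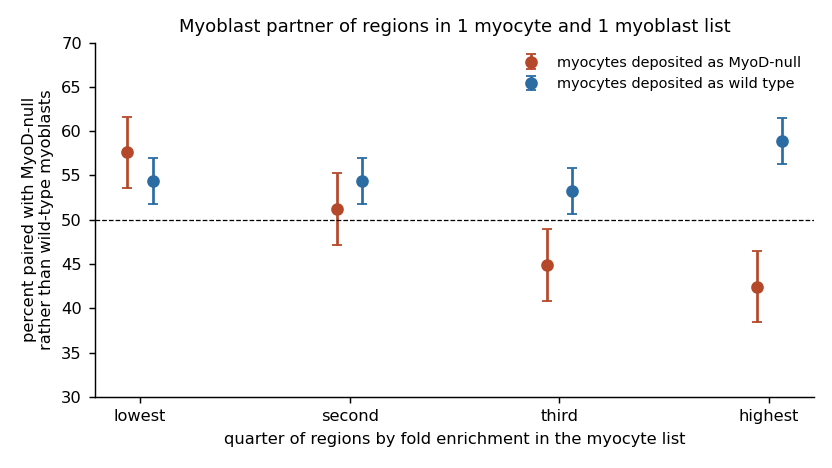
Share of regions in 1 myocyte and 1 myoblast list whose myoblast partner is the MyoD-null list, in 4 groups of equal size by the fold enrichment in the myocyte list. Points are shares and bars 95% Wilson intervals; the share falls with fold for myocytes deposited as MyoD-null (red, 57.6% to 42.4%) and is highest in the strongest group for myocytes deposited as wild type (blue, 58.9%).

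Starting from the myoblasts, where label and peak name give the same genotype, genotype-specific regions were mostly not members, among the strongest and over all. Of the 113 regions with the highest folds in MyoD-null myoblasts (4.30 or more) and no peak in wild-type myoblasts, 9 had a peak in the MyoD-null myocyte list alone and so belong to the MyoD-null class. A further 37 had one in the other myocyte list alone, 36 in both and 31 in neither. Of the 125 regions with the highest folds in wild-type myoblasts (4.25 or more) and no peak in MyoD-null myoblasts, 14 belong to the wild-type class. The myocytes deposited as MyoD-null alone held 34 of them, both myocyte lists 63 and neither 14. This order was reversed at a lower cut. Of the 1068 such regions with folds of 3.59 or more, 218 were members, and 149 were with the myocytes deposited as MyoD-null alone. For MyoD-null myoblasts the order stayed, with 102 members and 264 with the other myocyte list alone among 1026 regions (3.67 or more). Over all 14209 regions specific to MyoD-null myoblasts, 8.04% were members, close to the 7.96% of the 113 strongest. Over all 11653 specific to wild-type myoblasts, 21.5% were members, against 11.2% of the 125 strongest. The wild-type myocyte list was also the longer of the 2, and its part in the difference between the 8.04% and the 21.5% was not tested.

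Member peaks were weak in both classes. In the MyoD-null class the median fold enrichment was 3.27 in myocytes and 2.90 in myoblasts, with quartiles of 2.86 and 3.82 in myocytes and of 2.60 and 3.25 in myoblasts. For the wild-type class it was 3.83 in myocytes, with quartiles of 3.34 and 4.77, and 2.94 in myoblasts, with quartiles of 2.69 and 3.25. Placed within their own lists, these medians lay at the 19.9th and 18.6th percentiles for the MyoD-null class and at the 30.2nd and 20.02nd for the wild-type class. No member of either class reached the upper quartile of its myoblast list. In myocytes, 6 of 1142 regions of the MyoD-null class and 162 of 2510 of the wild-type class did so.

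The reads behind these peaks were correspondingly few. Summits in the MyoD-null class had a median of 29 reads in myocytes and 33 in myoblasts. Those in the wild-type class had 28 and 29. A summit was set against the fewest reads that would have been listed at its own local background. In the MyoD-null class, 41.9% of myocyte and 24.9% of myoblast summits had at least 1.5 times that number. In the wild-type class it was 63.1% and 20.7%, and in regions present in all 4 lists between 88.0% and 93.8%. Most myoblast summits of both classes were thus within 1.5 times of the listing limit. The crossed combinations were alike, with 23.3% of MyoD-null and 27.7% of wild-type myoblast summits at 1.5 times or more. The weaker of a member's 2 folds was also set against the fold needed at the genome-wide background of both absent lists. It reached that fold in 872 of the 1142 MyoD-null regions (76.4%) and 2239 of the 2510 wild-type regions (89.2%). The crossed combinations gave 87.2% and 81.2%. Members had already passed a similar limit in their own lists, so high shares follow from the selection. These shares cannot show whether the regions were closed in the absent lists.

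Within a region, the 2 peaks of a class lay close together. The median distance between the myocyte and myoblast summits was 53 bp in the MyoD-null class and 57 bp in the wild-type class, against 43 bp for the same pairs of lists at regions present in all 4. The summits were within 100 bp of each other in 76.6% and 72.6% of members. At least 50% of the shorter peak was shared in 96.1% and 97.0%. Nearly every member was a pair of peaks, and 1141 and 2503 members held exactly 1 peak of each list. Merging required these peaks to overlap, so close summits and a large shared part follow in part from the rule.

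Myocyte folds exceeded myoblast folds in 74.6% of the MyoD-null class and 88.8% of the wild-type class. On the log2 scale the median difference, myocyte minus myoblast, was 0.17 in the MyoD-null class and 0.38 in the wild-type class. Regions present in all 4 lists showed 0.17 and 0.34 for the same pairs of lists, so the members' median difference was close to that of the lists as a whole. The wild-type class had a long tail, in which the myocyte fold was at least 2 times the myoblast fold in 266 regions (10.6%). It was so in 12 regions of the MyoD-null class (1.05%) and in 5.07% of regions of all 4 lists for the wild-type pair. The crossed regions of the same myocyte list with MyoD-null myoblasts had a larger share still, at 13.04%. Across regions, Spearman's rho between the 2 folds was 0.45 over the 1142 MyoD-null regions and 0.25 over the 2510 wild-type regions. For regions in all 4 lists it was 0.80 and 0.72, over a wider range of folds. These points share the same pair of libraries and are a description.

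**Figure D3:**
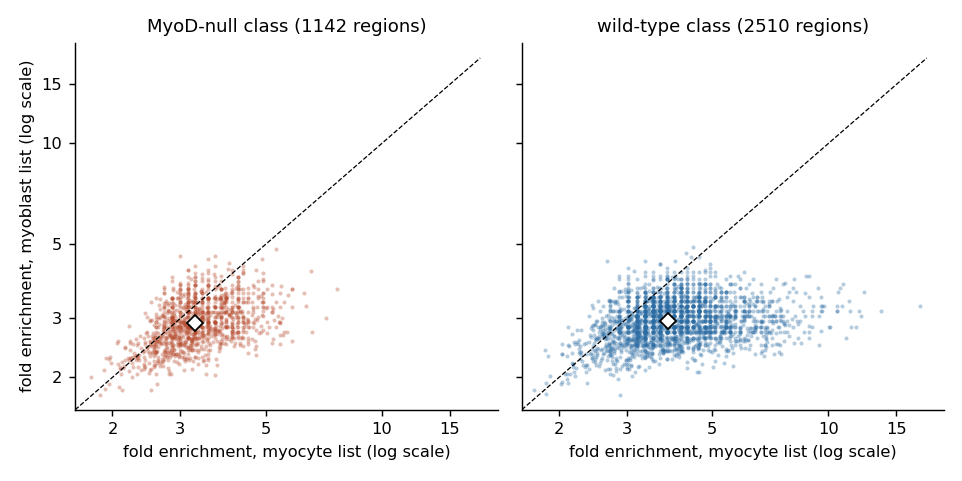
Fold enrichment of each member in its myocyte list (x) and its myoblast list (y), both on log axes, for the MyoD-null class (left) and the wild-type class (right). Each point is a region, the diamond marks the medians (3.27 and 2.90 on the left, 3.83 and 2.94 on the right) and the dashed line marks equal folds; the tail to the right in the wild-type class reaches a myocyte fold of 17.3.

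Members were ranked by the lower of their 2 folds, which picks those enriched at both stages. In the MyoD-null class the first was on chromosome 17 at 69908988 to 69909306 (mm9), with folds of 5.32 in myocytes and 4.82 in myoblasts and 38 and 45 reads at the summits. The second, on chromosome 7 at 142009215 to 142009752, had folds of 4.89 and 4.51. The third, on chromosome 8 at 83621342 to 83621671, had folds of 4.36 and 4.30 and lay 81861 bp from the nearest region of all 4 lists. None of the 3 was listed in either list deposited as wild type. The 7 that followed, on chromosomes 4, 6, 16, 19, 1, 12 and 14, had weaker folds of 4.09 to 4.19. A site on chromosome 16 at 32831189 to 32831938 was the broadest of the 10 (750 bp) and combined a myocyte fold of 6.56 with a myoblast fold of 4.17.

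In the wild-type class the highest weaker fold was found on chromosome 4 at 44524653 to 44524927. The folds there were 4.61 in myocytes and 4.58 in myoblasts, with 28 and 41 reads. A site on chromosome 18 at 29798350 to 29798659 followed with 4.45 and 4.90, the highest myoblast fold of the class. It stood 174543 bp from any region of all 4 lists. The third was on chromosome 7 at 119113065 to 119113381, with 4.40 and 4.58. These narrow sites had similar folds at both stages and no peak in either list deposited as MyoD-null. The other 7 of the first 10 had weaker folds of 4.14 to 4.36. In all, both folds reached 4 in 12 regions of the MyoD-null class and 25 of the wild-type class, or 1.05% and 0.996%. In the crossed combinations it was 1.65% with MyoD-null myoblasts and 3.28% with wild-type myoblasts. For regions in all 4 lists it was 55.3% and 57.5%.

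Ranked by the myocyte fold alone, the wild-type class held far stronger sites than the MyoD-null class. Its first site, on chromosome 16 at 46251674 to 46252302, had a fold of 17.3 (117 reads over a local background of 5.82) in myocytes deposited as wild type and 3.27 (29 reads over 8.18) in wild-type myoblasts. The next 2 were on chromosome 11 at 72876640 to 72877156, with folds of 13.7 and 3.16, and on chromosome 1 at 191011472 to 191012238, with 12.4 and 3.59. These sites had much higher folds in myocytes than in myoblasts. Chromosome 6 at 59051967 to 59052759 and chromosome 2 at 37896227 to 37896876 had myocyte folds of 12.2 and 12.03 and myoblast folds of 3.05 and 3.16. By the peak names, all of these are peaks of MyoD-null myocytes. High myocyte folds were not particular to this class. Crossed regions of the same myocyte list reached a fold of 13.8, and 9.39% were in its upper quartile, against 6.45% of the wild-type class. Crossed regions of the myocytes deposited as MyoD-null reached 10.9, with 2.19% in the upper quartile, against 0.525% of the MyoD-null class.

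The corresponding sites of the MyoD-null class had myocyte folds of 6.35 to 7.63. The first was on chromosome 11 at 45846283 to 45847052, with 7.63 in myocytes deposited as MyoD-null (55 reads) and 3.67 in MyoD-null myoblasts (34 reads). The second, on chromosome 3 at 97769922 to 97770288, had 7.14 and 3.02 and was only 614 bp from a region of all 4 lists. Ranked by the myoblast fold, the class held sites with the opposite balance. One on chromosome 7 at 96859338 to 96859556 had a myoblast fold of 4.61 (43 reads) and a myocyte fold of 3.00 (21 reads), and one on chromosome 2 at 144137142 to 144137527 had 4.61 and 3.68.

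The widest members of the wild-type class had myocyte folds above the class median. They were on chromosome 13 at 46683053 to 46684532 (1480 bp, folds of 8.07 in myocytes and 2.98 in myoblasts), chromosome 7 at 74047168 to 74048617 (1450 bp, 6.68 and 2.83) and chromosome 19 at 36241726 to 36243166 (1441 bp, 5.71 and 3.49). The widest of the MyoD-null class varied more, with myocyte folds of 3.73, 5.26 and 2.71. They were on chromosome 3 at 21883245 to 21884296 (1052 bp), chromosome 6 at 88997288 to 88998297 (1010 bp) and chromosome 16 at 49937023 to 49937966 (944 bp), with myoblast folds of 2.57, 2.97 and 2.87. Median widths of the merged regions were 343 bp in the MyoD-null class and 384 bp in the wild-type class, against 736 bp for regions of all 4 lists.

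Membership turned on a q-value limit. The member closest to the limit in the MyoD-null class, on chromosome 1 at 108574657 to 108574984, had a −log10 q of 2.23 in myocytes (17 reads) and 5.56 in myoblasts. In the wild-type class, a region on chromosome 11 at 52213656 to 52213919 had 2.21 in myocytes and 5.03 in myoblasts. Just outside, a region on chromosome 15 at 78950022 to 78950607 was in both lists deposited as MyoD-null and missed the class through a wild-type myoblast peak with a −log10 q of 2.53 and a fold of 2.13. A region on chromosome 17 at 44682383 to 44682633 missed the wild-type class through a MyoD-null myoblast peak with a −log10 q of 2.52 and a fold of 2.25. Extra peaks with a −log10 q under 3 were few, and those under 5 were more frequent. Of the 2278 regions in both MyoD-null lists and the wild-type myocyte list, 8 had a −log10 q under 3 in wild-type myocytes, and of the 4165 with a wild-type myoblast peak, 17 did. For the wild-type class, 17 of 2719 regions were kept out by such a peak in the myocytes deposited as MyoD-null and 23 of 6824 by one in MyoD-null myoblasts. With a limit of 5 the counts were 240 of 2278, 514 of 4165, 395 of 2719 and 720 of 6824 in the same order. The members' own median −log10 q in myoblasts was 6.08 in the MyoD-null class and 5.40 in the wild-type class.

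The 2 classes differed in where they lay, which the selection did not use. Regions of the MyoD-null class were a median of 5003 bp from the nearest region of all 4 lists, and regions of the wild-type class 8280 bp. The share within 1 kb was 17.0% in the MyoD-null class (194 regions) and 8.84% in the wild-type class (222 regions). The MyoD-null class thus sat closer to regions of all 4 lists. Regions listed only in myocytes deposited as MyoD-null were similar, with 15.5% within 1 kb. Regions more than 100 kb away made up 1.93% of the MyoD-null class and 3.82% of the wild-type class. The crossed combinations were in between, with medians of 7323 bp for MyoD-null myoblasts with myocytes deposited as wild type and 6350.5 bp for the opposite pair. Regions listed in a single list had medians of 5283 bp for myocytes deposited as MyoD-null and 6940.5 bp for those deposited as wild type. For MyoD-null myoblasts alone the median was 9147.5 bp and for wild-type myoblasts alone 9682.5 bp, both farther than in either class.

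**Figure D4:**
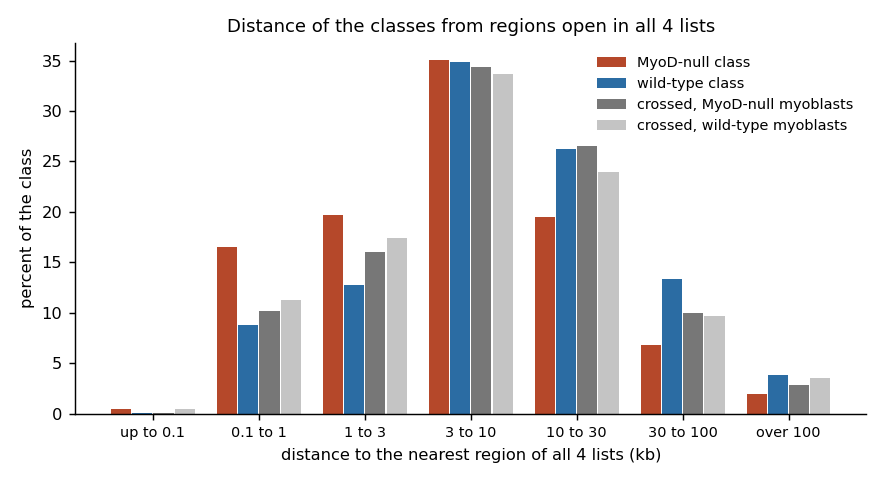
Percent of each class by distance, in kb, from the nearest region present in all 4 lists. In the bin from 0.1 to 1 kb the MyoD-null class (red) has 16.5% of its regions and the wild-type class (blue) 8.76%, with the 2 crossed combinations (greys) between them; from 30 to 100 kb the order is reversed, at 6.83% and 13.4%.

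The surroundings differed in the same way. Within 50 kb on either side, the MyoD-null class had a median of 12 other merged regions and the wild-type class 9, against 11 for all merged regions. The local background at the summit was the genome-wide one in 39.0% of myocyte and 30.7% of myoblast peaks of the MyoD-null class. In the wild-type class it was the genome-wide one in 51.8% and 52.5%. In the MyoD-null class the median local background was 7.05 reads in myocytes and 10.1 in myoblasts, above the 6.34 and 8.54 of the whole genome. That of the wild-type class was 5.29 and 8.18, the genome-wide values. A higher local background raises the number of reads a summit needs, and its part in the difference between the classes was not tested.

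Most members had no other member of their class nearby. Another region of the same class lay within 50 kb of 12.3% of the MyoD-null class and 16.8% of the wild-type class. Over all merged regions, 8.85% had a MyoD-null member and 15.9% a wild-type member within that distance. MyoD-null members were thus more frequent around their own class than around regions in general. They were near 10.3% of the crossed regions of the same myocyte list. For the wild-type class the 2 shares were close. The crossed regions of its myocyte list had a wild-type member nearby in 17.4% of cases. No test of these differences was made. The wild-type class lay near MyoD-null members in 7.13% of cases, below the 8.85% for all regions, and the MyoD-null class near wild-type members in 15.1%, close to the 15.9%. The immediate neighbour was a region of all 4 lists in 47.9% of cases for the MyoD-null class and 42.2% for the wild-type class, on either side of the 45.9% for all merged regions.

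A few runs were denser. The densest of the MyoD-null class was on chromosome 10 from 121218248 to 121301816, where 4 of 10 merged regions were members, with folds of 2.86 to 4.87 in myocytes and 3.04 to 3.50 in myoblasts. The densest of the wild-type class was on chromosome 9 from 62922246 to 62950714, with 4 members of 8 regions in 28469 bp and folds of 3.07 to 7.16 in myocytes and 2.72 to 3.10 in myoblasts. A run of 4 wild-type members on chromosome 11 from 72828183 to 72922503 included the second strongest myocyte site named above. None of these 3 runs held a member of the other class. Runs of 3 within 100 kb followed in both classes, the first on chromosome 1 from 134184110 to 134274712 in the MyoD-null class and on chromosome 1 from 51657317 to 51705246 in the wild-type class.

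Both classes were spread over all autosomes. The MyoD-null class made up 0.470% (interval 0.314 to 0.705) to 1.06% (0.792 to 1.42) of the merged regions of a chromosome, lowest on chromosome 16 and highest on chromosome 19. The wild-type class made up 1.51% (1.27 to 1.79) on chromosome 7 to 2.26% (1.88 to 2.72) on chromosome 18. The ratio of wild-type to MyoD-null regions was 2.20 over all autosomes. It was highest on chromosome 16, at 4.09 (23 MyoD-null and 94 wild-type regions), followed by chromosome 1 at 3.04. These ratios have no interval, and the extremes were picked from all autosomes. The ratio was lowest on chromosome 19, with 44 MyoD-null and 67 wild-type regions (1.52).

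**Figure D5:**
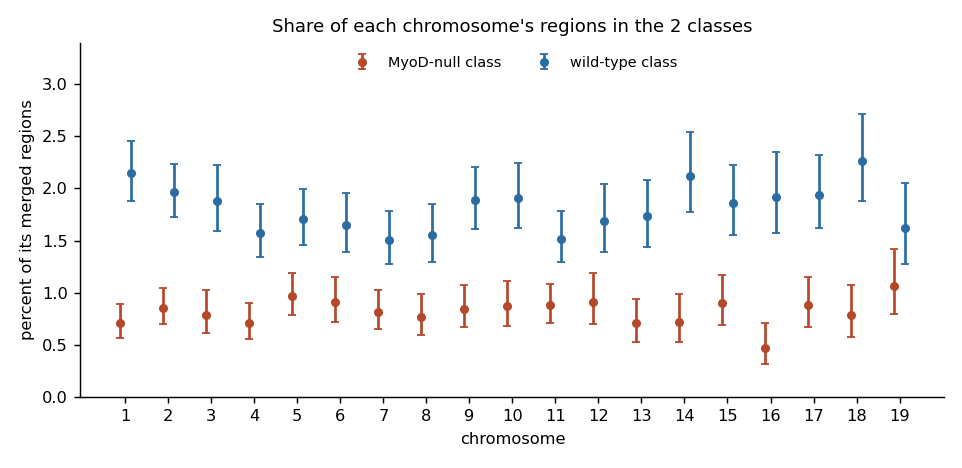
Percent of each chromosome's merged regions in the MyoD-null class (red) and the wild-type class (blue), with 95% Wilson intervals for counting error. The MyoD-null share is lowest on chromosome 16 (0.470%) and the wild-type share highest on chromosome 18 (2.26%).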

How the data were processed

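ATAC-seq peak lists of 4 groups, each made by the authors from merged reads of 3 samples, were used. The genome build mm9 and the tools MACS2 and deepTools are named in the submitters' processing notes. For the aligner, caller settings and any transposase shift, nothing was stated there or in the labels. The deposited fold enrichment is a ratio of summit pileup to local background. The deposited −log10 p and −log10 q belong to each summit, and the deposited score is 10 times −log10 q cut to a whole number for at least 99.95% of peaks in each list. Folds and q-values are the authors'. Start, end and summit positions are as deposited, written here from 1.

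Summit reads and local background were recovered by solving fold = (reads + 1) / (background + 1) together with the Poisson p-value, which matched to within 0.01 on the −log10 scale for every peak. Merging and recovery were tested on simulated peaks. The simulated sites lay well apart and left out the fewest reads and the highest local backgrounds of the members, so such cases were not tested. Named regions were chosen by rank (weaker fold, single folds, width, q-value, runs within 100 kb). In a region with several peaks of a list the strongest was used. Members, lists and rules were chosen with earlier results of these data known. No genome or annotation of this build was used, so peaks carry no gene names or sequences, and the planned gene lists and motifs were not run. RNA-seq samples were not analysed here. Computation used pandas 2.3.3 under Python 3.11.15, with scipy 1.17.1 for the Poisson tails, numpy 2.4.6, and matplotlib 3.10.9 for plots.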

Additional observations from a re-analysis of the deposited data

How the results depend on the processing

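Counts of the MyoD-null and the wild-type class changed by over 1.5 times when only peaks with a fold of at least 5 were used (376 and 605, with no original member among them), with genotypes read from the peak names (3099 and 1188), and when both member peaks needed a −log10 q of at least 5 (647 and 1241) or 10 (25 and 31). Those 2 cuts on member peaks were chosen after seeing the data. Lists of equal length (86575 peaks) gave 1394 for the wild-type class. A −log10 q of at least 5 in all lists, summit windows of 250 bp, 50% overlap, merging across 500 bp, isolation by 1 kb and chromosomes X and Y stayed within 1.5 times.

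Medians were called moved outside the 95% interval of the reported median. With −log10 q of at least 5, median folds were 3.54 in myocytes and 3.08 in myoblasts of the MyoD-null class, and 4.14 and 3.16 in the wild-type class, and the MyoD-null myocyte percentile was 22.0. With lists of equal length they were 3.36 and 3.15, and 4.61 and 3.16, with percentiles of 22.4 for MyoD-null myocytes and 20.96 for wild-type myoblasts. Summit windows gave 3.33 and a percentile of 21.7 for MyoD-null myocytes. Read by peak names, the MyoD-null class had a myocyte fold of 3.94 and a percentile of 31.7, and the wild-type class had folds of 3.42 and 2.96 and percentiles of 25.2 and 21.1. In all, 50 of 78 values were kept and 28 moved; the cause was not tested. No paired analysis was possible because each list pools its replicates, and no replicate could be left out.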

Other observations

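Regions of all 4 lists that lay within 5 kb of a member were compared between genotypes as well. The rule did not use their strength directly. Whether it affected the calling of nearby peaks through the local background was not tested. In myoblasts, the log2 fold of MyoD-null minus wild type had a median of -0.01 at 670 such regions near the MyoD-null class and 0.04 at 862 near the wild-type class, against 0.01 over all 64013. In the myocyte lists as deposited, the same difference was -0.19 and -0.09, against -0.15. With chromosomes X and Y included, the MyoD-null class held 1158 regions and the wild-type class 2568. Among regions with a −log10 q of at least 10 in both lists, 25 of the 70 with a peak in the myocytes deposited as MyoD-null had MyoD-null myoblasts as partner (35.7%). For the myocytes deposited as wild type it was 78.5% of 144. This cut was chosen after seeing the data.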
